A study of Solanum lycopersicum with 24 samples.

Results

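The 200 steadiest genes of tomato (Solanum lycopersicum, cultivar Micro-Tom) anthers were taken from 35768 gene identifiers by their spread in the deposited FPKM values (read counts scaled to gene length and to the total of counted reads in the library). A gene had to reach an FPKM of 10 in each of the 24 libraries, which 6845 did, and the 200 with the lowest coefficient of variation (CV, the SD divided by the mean over the 24 libraries) were kept. They are described as candidate reference genes for anthers. Control plants (CT) were kept at day and night temperatures of 25 and 19 °C and a relative humidity of 50%. Plants under long-term mild heat (LTMH) were transferred once they flowered to 34 and 28 °C at 68% humidity. Both had 12 hours of light, and anthers were collected about 5 hours into it, after 4 days for the tetrad, 6 days for the free microspore and 8 days for the polarized microspore stage. Each of the 6 groups had 4 libraries of 6 pooled anthers each. The labels do not say whether these came from separate plants, so spreads and p-values refer to these samples and may be partly technical. Stage and length of treatment go together and cannot be told apart. The same holds for temperature and humidity, so a heat effect or heat call below refers to both.

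A reference gene is one whose transcript level is taken as constant, so that other transcripts can be expressed relative to it, as in quantitative PCR. Genes of general cell upkeep, such as those for the cytoskeleton, translation or glycolysis, have often served for this, although their levels can change with tissue and stress. Anthers are a demanding case because the supporting tapetum degenerates while microspores leave the tetrad and mature. The RNA of a whole anther is a mixture of these cells. In such samples a change in the number of cells of a type and a change in RNA per cell cannot be told apart.

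The files do not pair the identifiers with names, and the reference table used here matched 0 of them. Genes are therefore given by identifier, with no role, and no sequence could be read for them. For the same reason the tissue label was not tested against anther marker genes. Libraries held 15657765 to 22987661 counted reads. Among 36 pairs of libraries of the same group, tetrad CT replicates 1 and 2 were the closest, with a chi-square of 4.43 per degree of freedom against 10.5 to 136 for the others. The labels do not say whether both came from 1 collection.

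The 200 genes had CVs from 3.37% to 7.48%, with a median of 6.75%. Over all 6845 genes that reached the FPKM minimum the median CV was 17.7%. These values chose the genes and are given as a description. At the edge of the list, Solyc05g055770.3 and Solyc02g063130.3 were the last genes kept, at 7.473% and 7.482%. Solyc09g082540.3 and Solyc12g099910.2 were the first left out, at 7.486% and 7.492%. There was no gap at this edge. At the other end, Solyc01g112250.3 at 3.37% and Solyc01g081070.3 at 3.69% stood apart from the next gene, Solyc06g036580.3, at 4.46%.

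**Figure D1:**
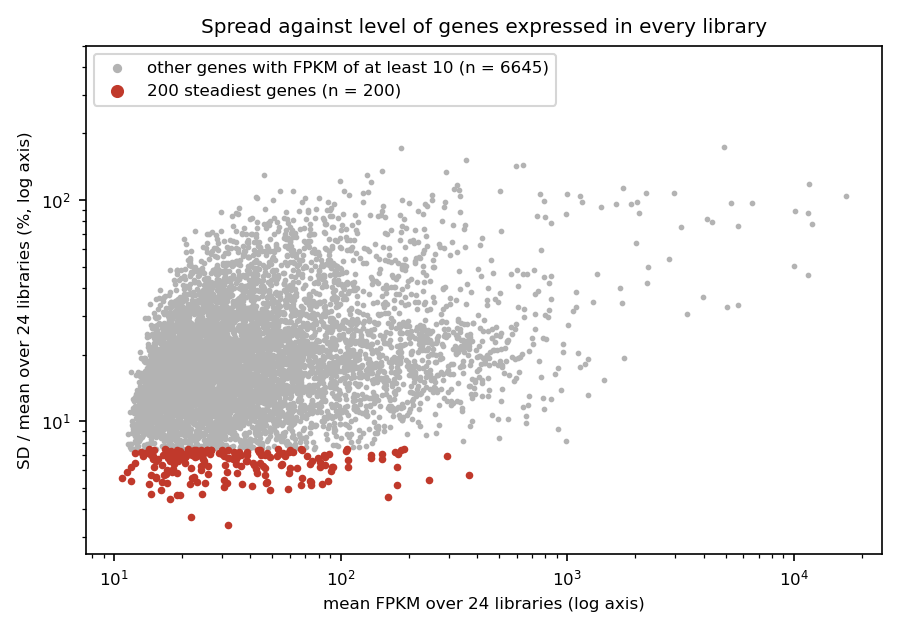
CV over the 24 libraries (vertical, %, log axis) against mean FPKM (horizontal, log axis) for the 6845 genes with an FPKM of at least 10 in every library, with the 200 steadiest genes in red. The 200 genes form the lower edge of the cloud below 7.48% and reach from 10.8 to 368 FPKM, and 2 of them lie clearly below the rest.

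Solyc01g112250.3 had the lowest spread, with a mean of 31.9 ± 1.08 FPKM (SD, n = 24) from 1235 or more reads in every library. At the tetrad stage the CT libraries held 34.2, 30.4, 31.2 and 33.2 FPKM and the LTMH libraries 31.9, 31.2, 33.0 and 32.1. Free microspore CT libraries held 30.8, 32.0, 30.2 and 32.8 FPKM, and those under LTMH 33.2, 30.4, 30.2 and 32.7. Polarized microspore CT libraries held 31.0, 31.9, 32.0 and 33.0 FPKM, and those under LTMH 32.7, 32.4, 32.6 and 31.8. The 6 groups overlapped throughout. The highest group mean (polarized microspore LTMH, 32.4 ± 0.383) was 1.03 times the lowest (free microspore CT, 31.4 ± 1.16; SD, n = 4 each). This was the smallest largest-to-smallest ratio of group means among the 6845 genes.

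Solyc01g081070.3 had a mean of 22.0 ± 0.810 FPKM (SD, n = 24). Its tetrad libraries held 21.3, 20.6, 21.2 and 20.4 FPKM in CT and 21.3, 23.0, 22.4 and 22.7 in LTMH. Its free microspore libraries held 23.2, 22.0, 21.2 and 23.1 in CT and 22.9, 20.9, 22.7 and 22.4 in LTMH. Its polarized microspore libraries held 22.3, 22.1, 22.0 and 22.3 in CT and 22.4, 21.4, 22.3 and 21.2 in LTMH. The tetrad CT libraries were the low ones, with a mean of 20.9 ± 0.460, and the remaining group means lay between 21.8 and 22.4. They overlapped every other group except polarized microspore CT. The largest group ratio was 1.07.

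Solyc06g036580.3 was the steadiest gene in the lowest of 4 equal classes of the 200 by level, at 17.6 ± 0.783 FPKM (SD, n = 24). Its tetrad libraries held 17.4, 17.0, 16.4 and 18.3 FPKM in CT and 17.1, 17.7, 16.5 and 17.1 in LTMH. Its free microspore libraries held 18.7, 17.2, 19.1 and 17.9 in CT and 17.0, 16.7, 17.2 and 18.1 in LTMH. Its polarized microspore libraries held 18.2, 18.3, 19.2 and 17.7 in CT and 17.4, 16.9, 16.9 and 18.1 in LTMH. The 2 later CT groups had the higher means, 18.2 ± 0.861 and 18.3 ± 0.633, and both overlapped their LTMH groups.

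Solyc04g074040.3 was the steadiest gene in the highest of these classes, at 162 ± 7.31 FPKM (SD, n = 24). Its tetrad libraries held 163, 167, 148 and 159 FPKM in CT and 152, 159.7, 155 and 168 in LTMH. Its free microspore libraries held 148, 155, 164 and 152 in CT and 162, 171, 160.5 and 165 in LTMH. Its polarized microspore libraries held 171, 165, 175 and 166 in CT and 160.5, 159, 163 and 173 in LTMH. The groups overlapped at each stage, and the largest group ratio was 1.09, between polarized and free microspore CT.

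Of the other 6 genes among the 10 with the lowest CV, Solyc02g083710.3 was the most abundant, at 48.9 ± 2.38 FPKM (SD, n = 24). It held 52.4, 52.1, 53.0 and 47.7 FPKM in polarized microspore CT and 46.3, 46.5, 46.0 and 48.6 in LTMH. All of its CT libraries but replicate 4 lay above all LTMH libraries there. The remaining 5, Solyc02g093930.3, Solyc04g070990.3, Solyc03g095410.3, Solyc05g056010.3 and Solyc09g055350.3, lay between 14.6 and 24.5 FPKM on average and had CVs of 4.63% to 4.86%. Their largest group ratios ran from 1.09 to 1.11. Solyc04g070990.3 was highest in free microspore CT (20.4 ± 0.667 FPKM) and lowest in tetrad LTMH (18.3 ± 0.376; SD, n = 4 each), and these 2 groups did not overlap in the plot of the 10 genes. Solyc03g095410.3 was highest in tetrad LTMH (25.9 ± 0.665) and lowest in free microspore CT (23.2 ± 0.969), again without overlap.

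**Figure D2:**
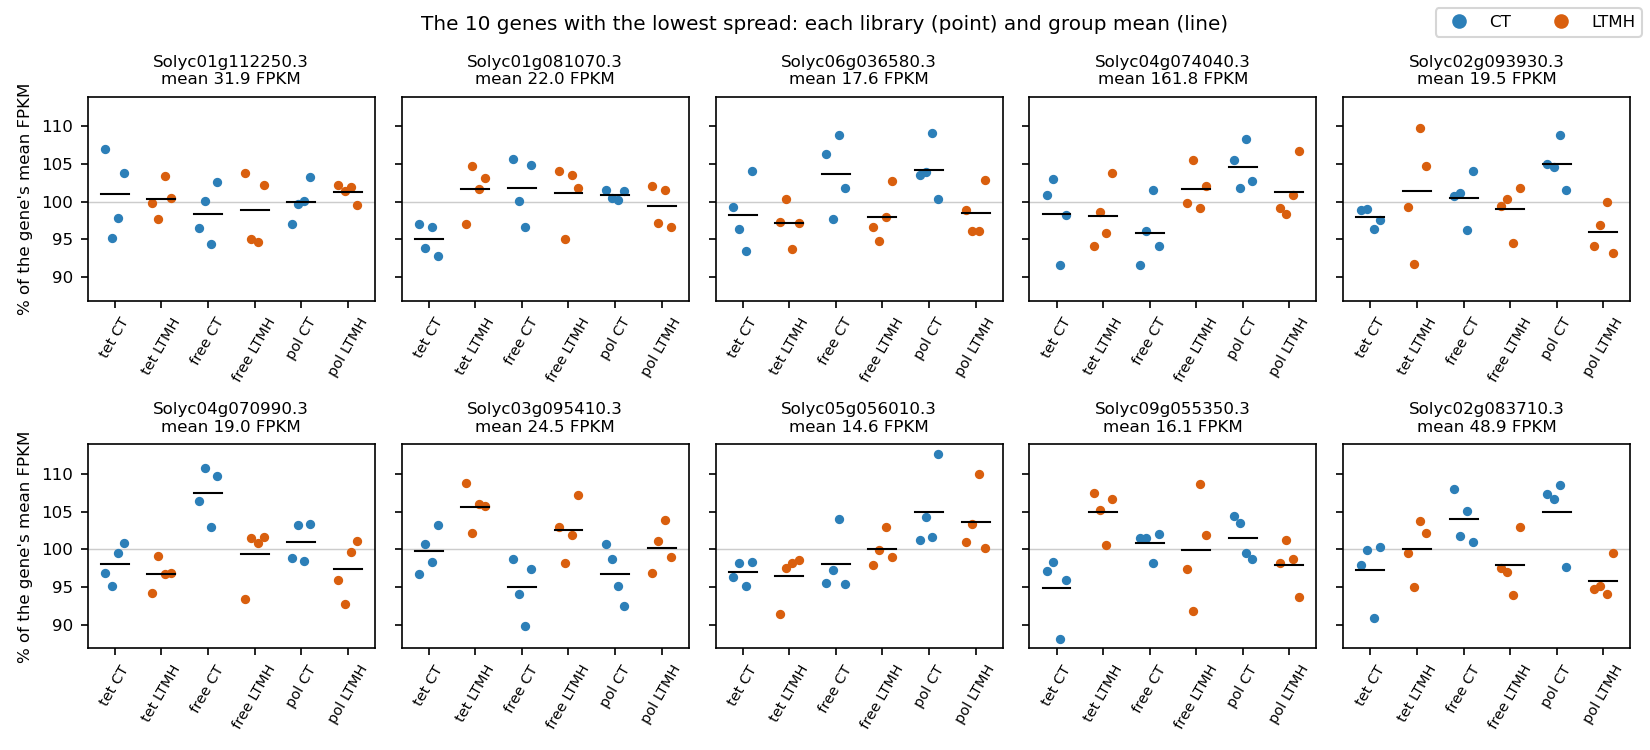
FPKM of the 10 genes with the lowest CV in each library as a percentage of the gene's mean (points, CT blue and LTMH orange), with the mean of each group of 4 as a line; tet, free and pol are the tetrad, free microspore and polarized microspore stages. All values lie between 88% and 113% of the gene's mean, and for Solyc01g112250.3 the 6 group means are nearly level (ratio 1.03).

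Over the 200 genes, the ratio of the highest to the lowest group mean had a median of 1.13 and ran from 1.03 to 1.199, against a median of 1.53 over the 6845 genes. It was below 1.1 for 52 of the 200 genes, against 68 of the 6845 (0.99%). Besides Solyc01g112250.3, the smallest ratios were those of Solyc10g007350.3 and Solyc11g018670.2, both at 1.04. Their libraries still differed within groups, Solyc10g007350.3 ranging from 52.4 to 67.6 FPKM, so its CV of 7.36% put it only at rank 178. The largest ratios belonged to Solyc12g019860.2, Solyc01g006800.3 and Solyc05g055770.3, at 1.199, 1.198 and 1.198. Solyc12g019860.2 held 27.5 ± 0.680 FPKM in tetrad CT and 33.0 ± 0.516 in polarized microspore CT, and Solyc01g006800.3 held 23.4 ± 0.942 and 28.0 ± 0.488 in the same groups (SD, n = 4 each). Solyc05g055770.3 ran the other way, from 212 ± 14.7 in tetrad LTMH to 177 ± 3.17 in polarized microspore CT (SD, n = 4 each).

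The lowest group mean fell in tetrad CT for 73 of the 200 genes and the highest in polarized microspore CT for 69. Over the 6845 genes the same groups held the lowest mean for 47.3% and the highest for 39.2%. After the TMM scaling described further on, tetrad CT was instead the highest group for 132 of the 200 genes and the lowest for 1, and polarized microspore CT the highest for 18, against 25.0%, 25.7% and 35.6% of the 6845. The SD of single libraries within groups exceeded the SD of the 6 group means for most of the 200 genes. Group means average over libraries and so vary less than single libraries even without group differences. This order therefore does not show that groups differed less than replicates. The pooled SD of libraries within a group was 5.41% of the mean at the median and the SD of the 6 group means 4.58%, against 9.96% and 15.98% over the 6845 genes. The group means varied more than the libraries within groups in 64 of the 200 genes and in 81.6% of the 6845.

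Single libraries rarely left the mean by much. Of the 4800 values of the 200 genes, 11.7% lay more than 10% from the gene's own mean and 4 values more than 20%, the extremes being 21.8% above and 21.4% below. All 24 libraries were within 20% of the mean for 196 of the 200 genes and within 10% for 10 genes. Tetrad CT replicate 3 had the most genes beyond 10%, at 40 of 200, and free microspore LTMH replicate 1 the fewest, at 5.

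The 200 genes covered a moderate range of levels. Mean FPKM ran from 10.8 to 368, with a median of 30.0 against 32.4 over the 6845 genes. The most abundant were Solyc05g050200.3, at 368 ± 21.1 FPKM, and Solyc07g053260.3, at 296 ± 20.5 (SD, n = 24 each). Solyc05g050200.3 ranged from 333 in tetrad LTMH replicate 3 to 424 in polarized microspore CT replicate 3. The least abundant were Solyc04g010310.3, at 10.8 ± 0.6004 FPKM, and Solyc09g018310.3, at 11.4 ± 0.671 (SD, n = 24 each). The minimum of 10 decided the place of Solyc04g010310.3, whose lowest library held 10.005 FPKM. Genes with a mean of 100 FPKM or more were 18 of the 200 (9%) but 15.4% of the 6845. Together the 200 genes took 1.64% to 1.78% of the reads of a library.

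Counting error was a visible part of these small spreads. The 200 genes had a median of 1172 reads per library, which alone gives a CV of 2.94% at the median, or 19.95% of the observed squared CV. Over the 6845 genes that share was 3.35%. It passed 50% for 15 of the 200 genes, among them Solyc01g112250.3 (59.1%), Solyc01g081070.3 (66.2%) and Solyc05g056010.3 (73.1%). At the read counts of these named genes, a real spread much below the observed one could not have been measured. Genes with more reads had less counting error, down to a CV of 1.21% among the 200.

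The listed genes were longer than the rest. The gene length behind the FPKM values had a median of 2110 bases in the 200 genes and 1541 in the 6845. The difference was present at each level, with medians of 2670 against 1952 bases between 10 and 20 FPKM, 2195 against 1627 between 20 and 50, 1525 against 1363.5 between 50 and 100 and 1181 against 1021.5 above 100. At equal FPKM a longer gene has more reads. The CV used by the rule includes counting error, so length is not independent of the rule. Median reads were 756 against 583 between 10 and 20 FPKM and 1192 against 897 between 20 and 50. They were 2058 against 1711 between 50 and 100, but 3636 against 4088 above 100. Whether read number accounts for the difference in length was not tested. By the chromosome number written in the identifier, the 200 genes came from all 12 chromosomes, from 8 genes on chromosome 8 to 25 on chromosome 1, which were 1.66% and 2.83% of the 6845 genes there. Chromosome 11 had the highest share, 21 genes or 4.30%.

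Steadiness across stages carried over in part to libraries of the other temperature, which had no role in the choice. Each CV and ratio was taken within 1 temperature. A gene whose level shifted as a whole between CT and LTMH would still have a low CV here. When the same rule was applied to the 12 CT libraries alone, its 200 genes had a median CV of 5.54% there and 6.60% in the 12 LTMH libraries, where all genes that passed in CT had a median of 13.4%. Of these 200 genes, 197 had a lower CV in LTMH than that overall median, and 97 stayed below the 6.52% that had been the highest CV in CT. The widest, Solyc05g014710.3, named here for its value, went from 6.36% in CT to 19.7% in LTMH. Their largest ratio between the 3 LTMH stage means was 1.08 at the median (1.24 over all genes that passed) and 1.47 at most.

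In the other direction, 200 genes chosen in the LTMH libraries went from a median CV of 4.81% there to 8.57% in CT, where the median over all genes that passed was 18.9%, and 33 of them stayed below 5.47%, the highest CV in LTMH. The CT and LTMH lists shared 51 genes, 25.5% of each, and these included all of the 10 genes with the lowest CV overall. Those 10 were ranked on these same 24 libraries, so their place in both lists follows in part from that ranking. Over all 24 libraries the 200 genes had a median CV of 6.48% within CT and 5.71% within LTMH, and 133 of them had the lower CV in LTMH, compared with 79.4% of the 6845 genes.

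**Figure D3:**
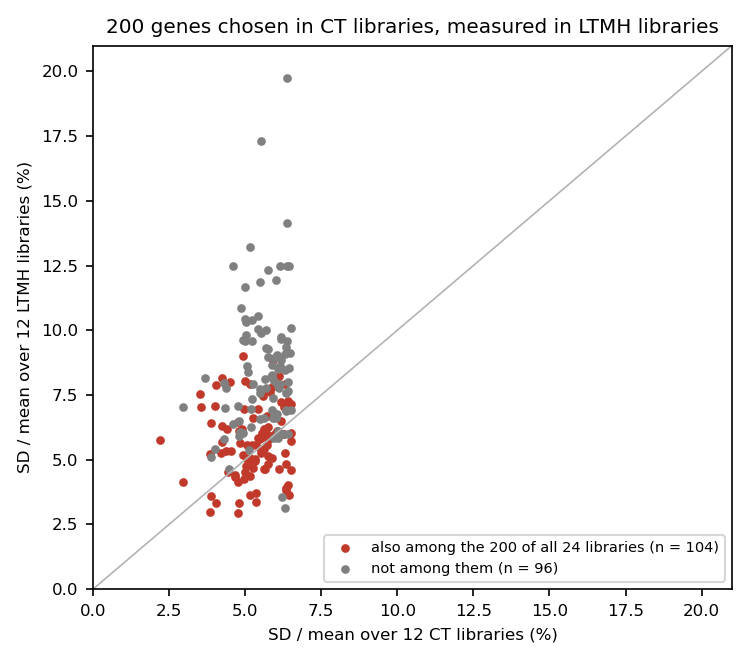
CV over the 12 LTMH libraries (vertical, %) against CV over the 12 CT libraries (horizontal, %) for the 200 genes chosen in CT alone; red points are the 104 that are also among the 200 of all 24 libraries, and the line marks equal values. CT values end at 6.52%, where the rule stopped, while LTMH values reach 19.7%.

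Leaving 1 replicate number out of the choice gave a similar picture. Lists chosen from 18 libraries had median CVs of 6.38% to 8.10% in the 6 libraries left out, 1 from each group, against 16.1% to 19.8% for all genes that passed. In each of the 4 cases all 200 chosen genes, or all but 1, lay below that overall median. The lists shared 148 to 163 genes with the list from all libraries.

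The level of the 200 genes depended on how libraries were scaled. FPKM refers each gene to the total of counted reads. TMM scaling, which sets libraries so that most genes keep their level, divides each FPKM by a further factor. These factors were 0.915 ± 0.0385 in tetrad CT and 1.024 ± 0.0406 in tetrad LTMH (SD, n = 4 each), and group means lay between 0.984 and 1.03 elsewhere. The geometric mean of the 200 genes was 33.4 ± 0.499 FPKM in tetrad CT and 34.3 ± 0.732 in tetrad LTMH, with all 24 libraries between 32.9 and 35.6. After TMM scaling it was 36.6 ± 0.976 in tetrad CT and 33.5 ± 0.624 in tetrad LTMH (SD, n = 4 each), and the 4 tetrad CT libraries lay above the other 20. Its CV over the 24 libraries rose from 1.95% to 4.07%, while that of all 6845 genes went from 4.87% to 2.94%.

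**Figure D4:**
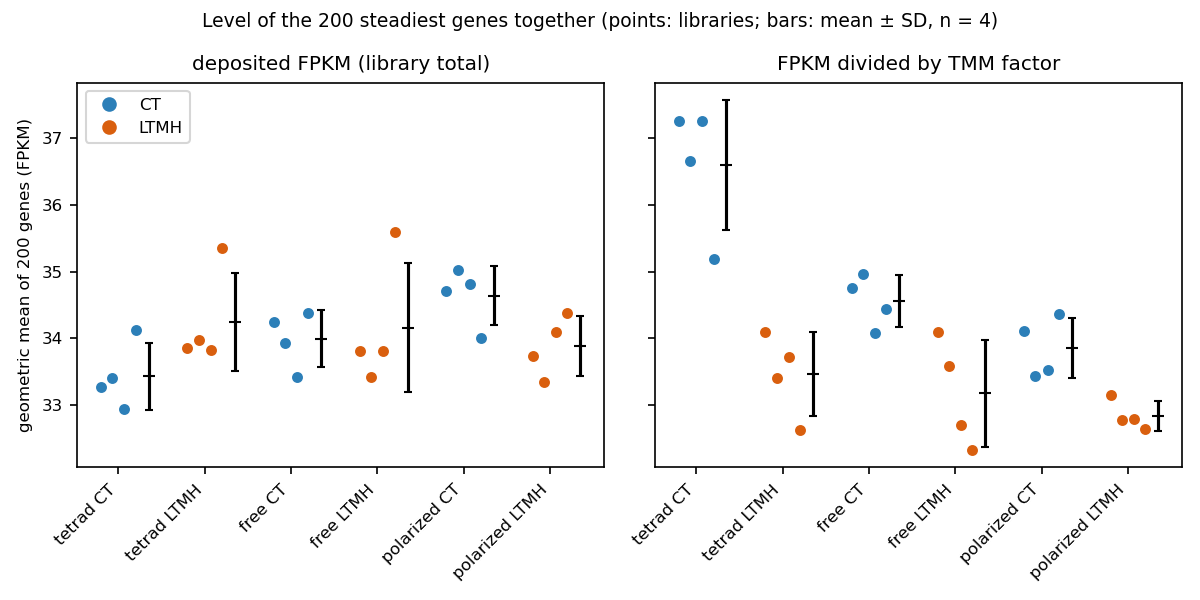
Geometric mean of the 200 genes in each library (points, CT blue and LTMH orange) with the mean ± SD of each group of 4 (bars), for the deposited FPKM (left) and for FPKM divided by the TMM factor (right). On the left the libraries span 32.9 to 35.6 FPKM; on the right the tetrad CT libraries lie at 35.2 to 37.3, above the others.

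The order of the genes depended on the scaling as well. When the whole rule, its minimum of 10 FPKM included, was applied to scaled values, 83 of the 200 genes were chosen again after TMM scaling, 87 after median-of-ratios and 137 after upper-quartile scaling. A total of 74 genes were in the list under all 4 scalings, 9 of the 10 with the lowest CV among them. The exception was Solyc04g070990.3, which held rank 200 after TMM among the 6845 genes and fell just outside the list when the minimum was applied again to TMM-scaled values, since other genes then passed it. Ranks after TMM are given here among the 6845 genes. Solyc01g112250.3 went from a CV of 3.37% to 6.47% and rank 144 after TMM, and Solyc01g081070.3 from 3.69% to 4.89% and rank 17. The lowest CV after TMM, 3.65%, belonged to Solyc03g111320.1, named here for its value, which held rank 56 on FPKM with a CV of 6.05% at a mean of 42.4 FPKM. The largest group ratio of the 200 genes had a median of 1.16 after TMM and reached 1.34. It was below 1.2 for 141 of the 200 genes after TMM and for all 200 on FPKM.

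**Figure D5:**
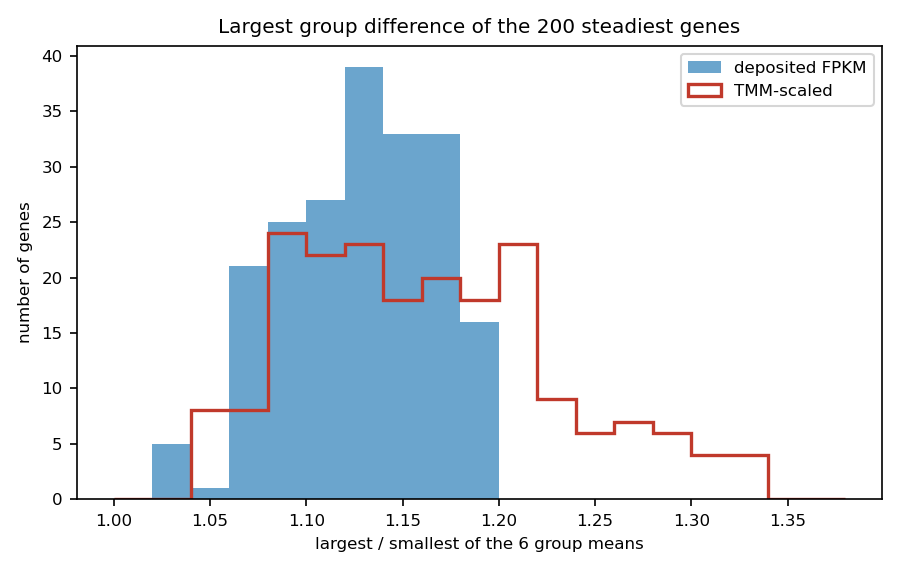
Number of the 200 genes (vertical) by the ratio of the largest to the smallest of their 6 group means (horizontal), on the deposited FPKM (filled) and after TMM scaling (line). On FPKM all 200 genes lie below 1.2; after TMM the ratios reach 1.34.

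A ratio between 2 genes of the same library does not depend on the scaling. Among the 45 pairs of the 10 genes with the lowest CV, the SD of the log2 ratio over the 24 libraries ran from 0.05 to 0.11, with a median of 0.09. The lowest SD was that of Solyc06g036580.3 and Solyc02g083710.3, whose ratio varied 1.17-fold between its extremes. The highest SD was that of Solyc04g070990.3 and Solyc03g095410.3, at 1.36-fold. By the fold between extremes the order differed, from 1.16-fold for Solyc02g093930.3 and Solyc02g083710.3 to 1.45-fold for Solyc03g095410.3 and Solyc05g056010.3. Averaged over all other members, Solyc01g081070.3 had the lowest SD of log2 ratios, 0.101, followed by Solyc01g112250.3 at 0.104, against a median of 0.126. All of the 10 genes with the lowest CV were among the 20 lowest by this measure. The ratios use the same FPKM values that ranked the genes, so a low SD here follows in part from a low CV.

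Combining genes narrowed the spread on FPKM up to a panel of 20. The geometric mean of the 3 genes with the lowest CV had a CV of 2.26% over the 24 libraries, and that of the 10 had 1.91%, with libraries between 25.6 and 27.8 FPKM. With 20 genes it was 1.58%, and with 50 and 200 genes it was wider again, at 1.69% and 1.95%. After TMM scaling the same panels of 3, 10 and 20 genes had CVs of 4.87%, 4.33% and 4.49%. These panels were chosen on the libraries they are measured in. Panels of the 3, 10 and 20 lowest CVs in CT, measured in LTMH on FPKM, had CVs of 4.74%, 3.25% and 3.19%. Those of 2 and 5 genes had 3.93% and 3.06%, so the CV did not fall steadily with the number of genes. These CVs were taken within LTMH and do not include a shift between CT and LTMH.

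Tests across all genes were read beside these levels, and since they use the libraries that chose the list, nothing is drawn from the counts. In edgeR with TMM scaling and an adjusted p below 0.05, 109 of the 200 genes were called for any difference among the 6 groups, against 81.1% of the 21429 genes tested and 87.1% of the 6845. Between LTMH and CT, the tetrad stage had 68 called genes, against 21.2% of all genes tested, and all 68 were lower in LTMH, as were 12.9% of all genes tested. The free microspore stage had 10 called genes, all lower, where 8.82% of all genes tested were called and 4.61% were called lower. The polarized microspore stage had 17, again all lower, where 19% were called and 10.7% were called lower. Between CT stages, 38 genes were called from tetrad to free microspore, all lower, and 22 from free to polarized microspore, 4 higher and 18 lower. For the earlier step 40.7% of all genes tested were called and 21.6% were lower. For the later step 41.1% were called, 19.6% higher and 21.4% lower.

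The direction of these calls differed between scalings in part. With median-of-ratios scaling all heat calls were again lower in LTMH, 60, 8 and 17 at the 3 stages in order, where 21.1%, 8.86% and 19.1% of all genes tested were called. With upper-quartile scaling 17 of 19, 4 of 6 and 7 of 9 heat calls were lower, where 22.2%, 8.6% and 18.2% of all genes tested were called. Of its 24 calls from CT tetrad to free microspore 19 were higher, and 45.2% of all genes tested were called under this scaling. With TMM none of 38 was higher, and 40.7% of all genes tested were called. For this step the median log2 change of all genes tested was 0.02 with TMM and 0.12 with upper-quartile scaling. That of the 200 genes was -0.08 and 0.01. Of the 16 upper-quartile calls from free to polarized microspore 5 were higher, where 41.1% were called. With library totals in place of TMM, edgeR called 21 of the 200 genes at the tetrad stage, 17 higher and 4 lower in LTMH, against 27.6% of all genes tested, 20.5% higher and 7.09% lower. There the median log2 change of all genes tested moved from -0.01 to 0.15 and that of the 200 genes from -0.12 to 0.04. At the free microspore stage it called 1 gene, higher, against 8.4% of all genes tested, and at the polarized microspore stage 10, all lower, against 17.2%. From CT tetrad to free microspore it called 24, 19 of them higher, against 44.7%, and from free to polarized microspore 20, 15 of them higher, against 41.1%. For scalings other than TMM, shares by direction over all genes are given only for the tetrad heat contrast with library totals. The other directions cannot be set against such a share. For Solyc01g112250.3 the size of the difference depended on the scaling. Its FPKM at the tetrad stage was 32.3 ± 1.73 in CT and 32.1 ± 0.743 in LTMH, its TMM-scaled level 35.3 ± 2.16 and 31.3 ± 1.47 (SD, n = 4 each), and the log2 change in the edgeR fit with TMM was -0.17 ± 0.06 (SE). The FPKM means were closer than their SDs, so no direction is read from them. With TMM this gene was among the 68 called lower at the tetrad stage (edgeR adjusted p of 0.035). It was also called lower from CT tetrad to free microspore (0.047) and for any difference (0.027). Of the 10 genes with the lowest CV, Solyc06g036580.3, Solyc04g074040.3, Solyc04g070990.3 and Solyc05g056010.3 were also called lower at the tetrad stage. The rest of the 10 were not.

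The intervals of these differences are given as a description, since a low CV over the same libraries keeps them small. In the edgeR fit with TMM, the 95% intervals of all 5 contrasts lay within a 1.5-fold change in either direction for all 200 genes, compared with 46.5% of the 6845, and within 1.2-fold for 71 of the 200, compared with 2.41%. For the 3 heat contrasts alone, 89 of the 200 stayed within 1.2-fold, compared with 7.67%. None of the 200 genes was called in edgeR for a heat effect that differed between the polarized and the tetrad stage, against 4.09% of all genes tested. At an unadjusted p below 0.05, a looser threshold, there were 31 of the 200. The share of all genes at that threshold is not given here, so the 31 cannot be set against it. DESeq2 and limma were not run for that difference.

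Single libraries moved the counts of calls. At the tetrad stage the 68 calls became 34, 40 and 39 without CT replicates 1, 2 and 3 and 20 without LTMH replicate 4, while the share of all genes tested that was called went from 21.2% to 15.7%, 15.4%, 16.5% and 13.7%. The 10 free microspore calls became 2 to 6 without any of 8 libraries, namely free microspore CT replicate 4 and LTMH replicates 3 and 4, polarized microspore CT replicates 1 and 3 and LTMH replicates 1 and 2, and tetrad LTMH replicate 4, where 5.83% to 8.52% of all genes tested were called. The 17 polarized microspore calls became 4 to 10 without any polarized microspore library other than CT replicate 2, or without tetrad or free microspore LTMH replicate 4, where 13.7% to 18.6% of all genes tested were called. The 38 tetrad to free microspore calls became 21 and 24 without tetrad CT replicates 1 and 2, where 33.3% and 32.5% of all genes tested were called. The 22 free to polarized microspore calls became 13 without free microspore CT replicate 1 and 14 and 12 without polarized microspore CT replicates 1 and 3, where 34.2%, 37.9% and 34.9% of all genes tested were called.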

How the data were processed

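The genes, tests and alternatives were chosen with earlier results of these data known. Per the submitters' processing notes, TopHat2 2.0.12 and HTSeq 0.6.1 were used; for these tools the settings, and for the reads the genome build and gene models, were not given in the sources used here. A library kit was used that is not described as keeping strand, so overlapping genes on opposite strands and near-identical copies may not be told apart. The authors deposited raw read counts per gene and an FPKM table. Each deposited FPKM is a count over gene length and library total, from which a whole-base length was recovered for 29041 genes (tolerance 0.01 base). Columns of the 2 tables were matched to samples by the labels' descriptions, and 3 columns with neither name nor value were not used. CVs use the sample SD.

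The 24 libraries entered 1 fit of 6 groups in edgeR 4.0.16 under R 4.3.3, with TMM, filterByExpr (minimum count 10) and robust quasi-likelihood tests, adjusted by Benjamini-Hochberg over 21429 genes. Standard errors came from the F statistic. Scaled FPKM are FPKM divided by edgeR's TMM, median-of-ratios or upper-quartile factors. DESeq2 1.42.0 and limma 3.58.1 on log2(FPKM + 1) and log2(FPKM + 0.1) were alternatives. The scripts were tested on simulated counts. Counting error was taken as the mean of 1/reads and covers counting only. Genes were named by rule: the 10 lowest CVs, 2 highest and 2 lowest levels, 3 smallest and 3 largest group ratios, the 2 genes on either side of the limit of the list, the lowest CV in each of 4 classes of level and the 3 smallest largest deviations in any library. Gene lists by product name could not be used, since no name matched.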

Additional observations from a re-analysis of the deposited data

Results flagged for a closer look

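Within-group values of the named genes and of the geometric mean of the 200 genes were checked for 1 library standing apart from the other 3 of its group. Of 138 groups 8 were marked, where chance alone gives about 1 in 20, or 6.9. Solyc04g070990.3 held 17.7 FPKM in free microspore LTMH replicate 1 against 19.1 to 19.3 in the others. Solyc05g056010.3 held 13.4 in tetrad LTMH replicate 1 against 14.2 to 14.4. Solyc09g055350.3 held 15.8 in free microspore CT replicate 3 against 16.3 to 16.4. Solyc02g083710.3 held 47.7 in polarized microspore CT replicate 4 against 52.1 to 53.0. Solyc07g053260.3 held 306 in polarized microspore LTMH replicate 4 against 283 to 285. Solyc09g018310.3 held 10.3 in tetrad CT replicate 2 against 11.4 to 11.5, and 13.1 in tetrad LTMH replicate 4 against 11.5 to 11.7. The geometric mean of the 200 genes was 35.3 FPKM in tetrad LTMH replicate 4 against 33.8 to 34.0.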

How the results depend on the processing

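Of the 200 genes, the list kept 83 under TMM and 87 under median-of-ratios with the minimum applied to scaled values, 125 with an FPKM minimum of 20, 112 with a robust CV, 118 when ranked by group ratio, 104 from CT and 88 from LTMH libraries only, and 174 to 191 without 1 library (148 to 163 without a replicate number). Their median CV of 6.75% became 7.37% (TMM) and 7.33% (median-of-ratios), and ran from 6.54% to 6.81% without 1 library; the median group ratio of 1.13 became 1.157 and 1.155, and ran from 1.127 to 1.136. The LTMH CV of genes chosen in CT ran from 6.27% to 6.93% without 1 library and was within the replicate spread in its other alternatives. Of the CVs of 22 named genes, 7 moved by more than the replicate spread under TMM and 7 under median-of-ratios, and none did under upper-quartile scaling or without 1 library.

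Counts of called genes, each list followed by the share of all genes tested that was called, were, in the order heat at the tetrad, free and polarized microspore stages, then CT tetrad to free and free to polarized: 21, 1, 10, 24 and 20 with library totals (27.6%, 8.4%, 17.2%, 44.7% and 41.1%); 19, 6, 9, 24 and 16 with upper-quartile scaling (22.2%, 8.6%, 18.2%, 45.2% and 41.1%); 44, 4, 8, 24 and 11 without a filter (14%, 5.52%, 12.6%, 28.6% and 29.6%); 22, 1, 10, 25 and 20 in limma with either pseudocount (28.6%, 8.76%, 17.2%, 44.5% and 39.7% with 1); 18, 0, 3, 13 and 5 at an adjusted p below 0.01 (10%, 3.1%, 9.33%, 26.7% and 27.3%); and 6, 0, 11, 8 and 4 in fits of only the libraries compared (17%, 2.52%, 22.6%, 31.3% and 31.5%). The free microspore stage had 45 genes at an unadjusted p below 0.05 in the fit as reported, for which the share of all genes is not given. DESeq2 made 20 calls there (8.34% of all genes tested). Without 1 library the counts ran from 20 to 68, 2 to 11, 4 to 17, 21 to 48 and 12 to 23 (13.7% to 22.2%, 5.83% to 10.1%, 13.7% to 19.8%, 32.2% to 41.9% and 33.2% to 43.2%). Any difference among the groups was called for 68 with library totals (82.5%), 71 in limma with either pseudocount (82.4% with 1), 68 at an adjusted p below 0.01 (69.9%) and 92 to 113 without 1 library (78.5% to 80.8%). Same-numbered libraries of the compared groups did not deviate together throughout (correlations of -0.38 to 0.35), so the numbers are not read as pairs; with the replicate number as a block the counts were 64, 9, 17, 39, 21 and, for any difference, 103 (21.9%, 9.42%, 19.6%, 41.4%, 41.4% and 80.9%). Which scaling follows RNA per anther was not tested. Read counts limit the smallest spreads for part of the genes, as given above.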
